A study of Mus musculus with 3 samples.

Results

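The cells described here are microglia of 1 single-cell library, selected on how many Myc transcripts each of them held. Library 3, named after the suffix of its cell barcodes, holds 3322 of the 7522 cells of the series, and 2912 of these had at least 4000 unique molecular identifiers (UMIs), each of which marks 1 captured transcript. Of those 2912 cells, 375 had at least 2 Myc UMIs and are called Myc-high (12.9%, exact 95% binomial interval 11.7% to 14.1%), 785 had 1 (27.0%), and 1752 had 0 and are called Myc-negative (60.2%). The Myc-high cells were 238 cells with exactly 2 Myc UMIs and 137 cells with 3 or more, and the most found in 1 cell was 12. The names describe counts, and a cell with 0 Myc UMIs may hold Myc RNA that was not captured. How far the groups differ in Myc RNA rather than in the sampling of UMIs was not tested.

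The study sorted YFP (+) cells by FACS from the lumbar spinal cord of C57BL/6 mice heterozygous for Cx3cr1-creER-yfp, an allele that places creER and yfp under the Cx3cr1 promoter. It compared naive mice with mice taken 24 h or 48 h after sciatic nerve transection, with 3 animals pooled per group and 1 library per group by the methods. All groups carry the same allele, and monocytes and border macrophages can use the same promoter as microglia. No label ties a barcode suffix to a group, so neither library 3 nor library 2 has a time point here.

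Myc encodes a short-lived transcription factor that binds DNA together with its partner MAX, mostly at the E-box sequence CACGTG. In dividing cells it is known for raising genes of ribosome assembly, nucleotide synthesis and DNA replication, and its own RNA is among those induced early after growth signals. Microglia are the resident macrophages of the spinal cord and divide after injury of a peripheral nerve. The gene lies on chromosome 15 (chr15:61985391-61990374, plus strand, GRCm38).

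The Myc-high cells held more UMIs in all, here called depth, than the cells they were compared with. The rule counts Myc before any thinning, and itself takes more of the deep cells. The median depth was 6931 UMIs in Myc-high cells (5th to 95th percentile 4659 to 10879), 6070 in cells with 1 Myc UMI and 5821 in Myc-negative cells (4234 to 9141). Just inside the limit, cells with exactly 2 Myc UMIs had a median of 6670, and cells with 3 or more had 7086. Every cell was therefore thinned to 4000 UMIs by drawing without replacement, and all levels below are mean UMIs per thinned cell. After thinning, the Myc-high cells kept 1.64 Myc UMIs per cell and the cells with 1 Myc UMI kept 0.627. At least 1 Myc UMI was left in 88.3% of the Myc-high cells and 62.7% of the cells with 1, so thinning alone took some cells to 0. The median number of genes per thinned cell was 1819 in Myc-high cells and 1817 in Myc-negative cells, and the median share of mitochondrial UMIs was 1.21% and 1.19%. Because depth moves with the grouping, the Myc-negative cells were also weighted to the depths of the Myc-high cells. Values from this weighting are given for the chemokine, ribosome assembly, DNA replication and early gene lists and for Ccl2 and Ccl7. Results printed without such a value may also move with depth, and library 2 was not weighted. The part of depth in the remaining differences was not tested.

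**Figure D1:**
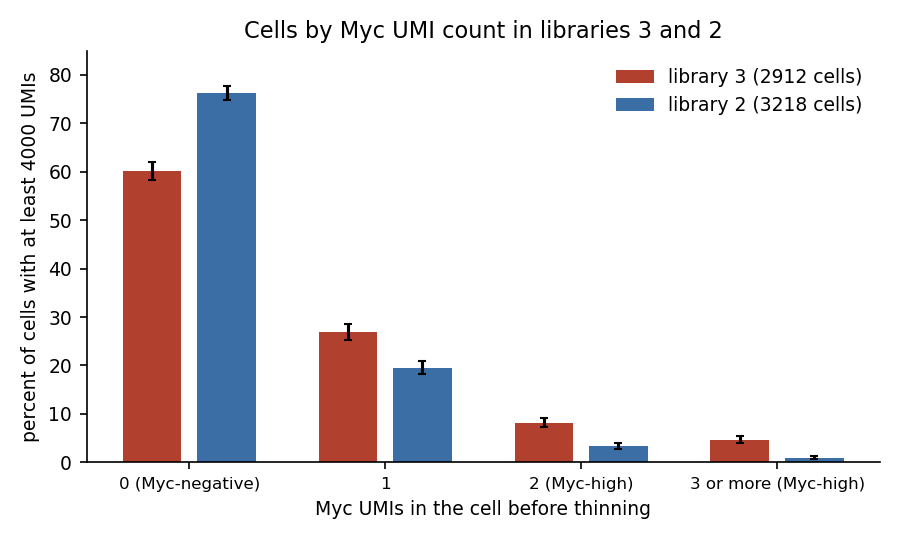
Percent of cells with at least 4000 UMIs (y axis) that held 0, 1, 2 or at least 3 Myc UMIs (x axis) in library 3 (red) and library 2 (blue), with exact 95% binomial intervals as error bars. Cells with 2 or more Myc UMIs were 12.9% of library 3 and 4.23% of library 2.

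In library 2, 136 of 3218 cells at the same minimum depth had at least 2 Myc UMIs (4.23%, 3.56% to 4.98%). In library 1 only 9 cells reached the minimum depth and 0 of them were Myc-high, which allows a share of up to 33.3%. The share in library 3 also moved with the rule: it was 6.90% when Myc was counted after thinning, 11.7% over all barcodes of the library, 18.0% among cells with at least 6000 UMIs and 4.70% for at least 3 Myc UMIs. The sort left no other cell type in numbers that would show how often droplets of cells without Myc hold its UMIs. Cell barcodes were shared between libraries in 25 cases, and 3 of the Myc-high cells carried such a barcode.

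Both groups carried the defining transcripts of microglia, some of them at lower levels in the Myc-high cells. Tmem119, a surface marker, was at 14.7 against 15.4 UMIs, and Csf1r, the receptor for the survival factor CSF1, at 9.26 against 9.20. The microglial receptors P2ry12 and Gpr34 were at 9.09 against 10.5 and 3.26 against 3.87. Markers of other cell types were low in both groups. The summed level was 0.008 against 0.0166 UMIs for 7 monocyte markers, 0.016 against 0.0103 for 8 border macrophage markers and 0.016 against 0.0348 for 8 neutrophil markers. Ccr2, the defining receptor of blood monocytes, gave 2 UMIs in the 375 Myc-high cells against 5 in the 1752 Myc-negative cells (0.00533 against 0.00285 per cell). Mrc1, a border macrophage receptor, gave 4 against 1 (0.0107 against 0.000571). Of the same lists, Vcan gave 1 against 2, Plac8 0 against 13, S100a4 0 against 8, Folr2 1 against 6 and Pf4 1 against 7. No direction can be read from so few UMIs. The lists for lymphocytes, astrocytes, oligodendrocytes and endothelium summed to between 0.128 and 0.571 UMIs in Myc-high cells and between 0.128 and 0.580 in Myc-negative cells, most of it from Cd79b, Slc1a3, Cnp and Pecam1. Neuron and red blood cell markers summed to 0.008 against 0.0103 and 0.024 against 0.0143.

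Of 27998 genes, 3160 besides Myc were measured, meaning that the mean of the 2 group means was at least 0.2 UMIs per thinned cell. Most of them differed little between the groups. The ratio of Myc-high to Myc-negative cells had a median of 1.004, and 5% of genes lay under 0.852 and 5% over 1.19. Over all 3160 genes, 51.3% had a ratio above 1, the share beside which the counts of list members above 1 stand. An upper limit, a level at least 25% higher in Myc-high cells, was reached by 73 genes (2.31%) and a ratio of at most 0.8 by 47 genes (1.49%). With 1 library there is no replicate and no test, so the 95% intervals given with ratios are exact conditional binomial intervals that cover the counting of UMIs only. They leave out the spread between cells and animals. The counts move with the number of UMIs behind each level. Without thinning, 37 and 27 genes passed the same limits, and with thinning to 2000 UMIs 179 and 167 did. Of the 73 higher genes, 17 had a level under 0.2 in Myc-negative cells and so passed the minimum through the Myc-high cells, and of the 47 lower genes, 9 passed it through the Myc-negative cells.

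**Figure D2:**
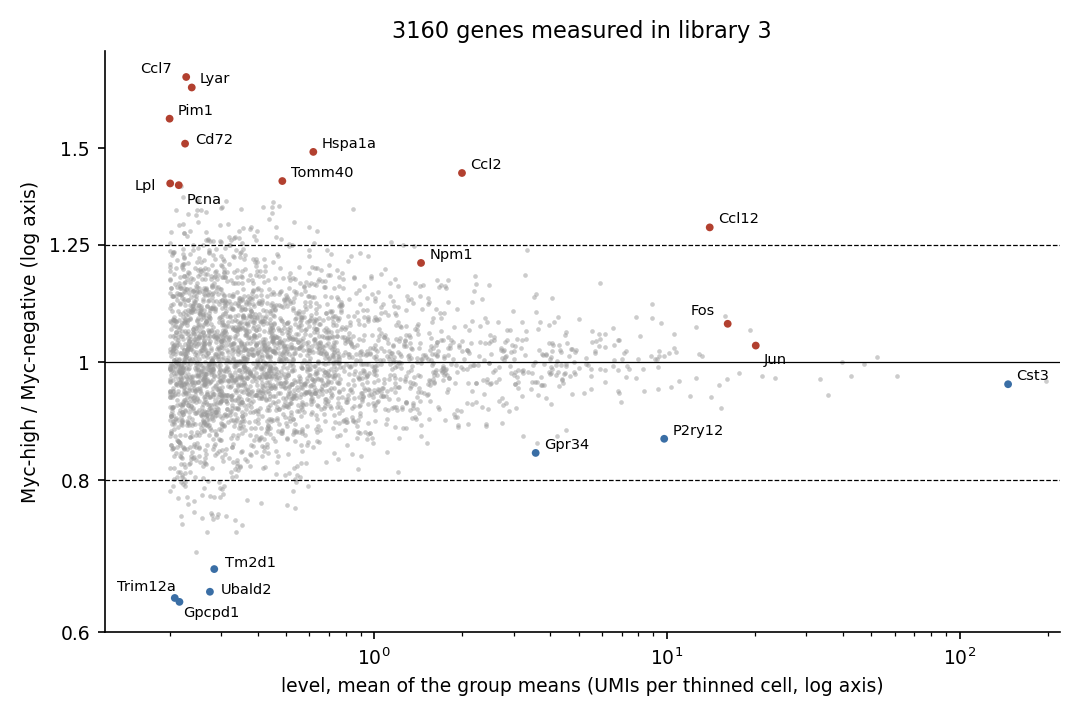
Ratio of Myc-high to Myc-negative cells (y axis, log) against the mean of both group levels in UMIs per thinned cell (x axis, log) for each of the 3160 genes measured in library 3, with dashed lines at the upper limit and at 0.8. The ratios fan out at low levels, and among abundant genes Ccl12 stands above the upper limit while P2ry12 and Gpr34 lie below 1.

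Chemokines of the CCL2 group were higher in Myc-high cells, and Ccl2 and Ccl12 were 2 of only 10 genes past the upper limit with a level of at least 0.5 UMIs. Chemokines are small secreted proteins that draw leukocytes, and CCL2, CCL7 and CCL12 are ligands of the monocyte receptor CCR2. Ccl12 was at 15.8 UMIs in Myc-high cells against 12.2 in Myc-negative cells, a ratio of 1.29 (1.254 to 1.329). Its median cell held 12 UMIs against 9, and the 95th percentile was 39 against 31, so the groups overlapped over most of their range. Ccl2 was at 2.35 against 1.64 UMIs (ratio 1.43, 1.33 to 1.54), with a median of 1 UMI in both groups and an upper quartile of 3 against 2. At least 5 Ccl2 UMIs were found in 14.9% of Myc-high cells (11.5% to 18.9%) and 9.13% of Myc-negative cells (7.82% to 10.6%). Ccl7 was at 0.288 against 0.168 UMIs (ratio 1.72, 1.36 to 2.15), which was the highest ratio of any gene measured. It passed the minimum through its Myc-high level and was at 0.957 with 1 Myc UMI. Its direction turned, at 0.663, without the cells that held 2 or more UMIs of other cell type markers. That filter counted UMIs before thinning and left 132 Myc-high and 723 Myc-negative cells. Its markers were spread over both groups, such as Slc1a3 in 32.5% and 35.4% of cells and Cnp in 25.9% and 23.6%. Whether other cell types or the loss of cells turned the direction was not tested. The 3 chemokine genes lie in 1 cluster on chromosome 11, from Ccl2 (chr11:82035571-82037453) over Ccl7 (chr11:82045712-82047525) to Ccl12 (chr11:82101845-82103400). UMIs of all 3 were found together in 10.7% of Myc-high cells (7.73% to 14.2%) and 7.08% of Myc-negative cells (5.92% to 8.38%). Taken singly, Ccl12 was found in 100% and 99.9% of these cells, Ccl2 in 66.7% and 59.4% and Ccl7 in 14.4% and 11.6%. Joint detection beyond these single shares was not tested.

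Other chemokines were less uniform. Ccl4 and Ccl3, which draw T cells and monocytes, were at 3.54 against 2.999 UMIs (ratio 1.18) and 3.79 against 3.33 (ratio 1.14). Ccl6 and Ccl9, ligands of CCR1, were lower in Myc-high cells at 0.683 against 0.820 (ratio 0.833, 0.726 to 0.952) and 0.821 against 0.937 UMIs (ratio 0.877, 0.774 to 0.991). Cxcl16, a membrane-bound chemokine, was at 0.357 against 0.360. Over the 15 chemokines of the list, the summed level was 27.7 UMIs in Myc-high and 22.6 in Myc-negative cells, a ratio of 1.23 (1.201 to 1.254). Of the 8 that were measured, 5 had a ratio above 1 and 3 reached the upper limit. With the depths matched by weighting, the list's ratio was 1.12, that of Ccl2 was 1.24 and that of Ccl7 was 1.51. Within cells of 4000 to fewer than 6000 UMIs, an added comparison, the list was at 1.18 and Ccl2 at 1.17.

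The sum of the chemokines was higher at each step of the Myc count, which was not so for every member. Relative to Myc-negative cells, the summed chemokines stood at 1.04 in cells with 1 Myc UMI, 1.17 with 2 and 1.33 with 3 or more. Ccl2 stood at 0.993, 1.32 and 1.63 over these counts. Ccl4 stood at 1.08, 1.04 and 1.42 and Ccl3 at 0.997, 0.979 and 1.41, so that they stood out in the last group alone, and Ccl9 stood at 0.960, 0.911 and 0.818. These groups share their Myc-negative cells. In library 2, which the selection did not use, the summed chemokines of Myc-high cells were at 1.20 times the Myc-negative level (1.13 to 1.28), Ccl12 at 1.33 (5.04 against 3.78 UMIs) and Ccl2 at 2.18 (0.566 against 0.260 UMIs, 1.70 to 2.76). Ccl7 was at 0.0368 against 0.0424 UMIs there, from 5 UMIs in the Myc-high cells. Ccl4 at 0.822 (0.591 to 1.12) and Ccl6 at 1.11 (0.934 to 1.30) lay on the other side of 1 in library 2. Ccl3 at 1.08 and Ccl9 at 0.929 kept their side. Ccl12 made up most of the summed level in both libraries. The median ratio of the 8 measured chemokines was 1.16 in library 3 and 1.04 in library 2.

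Genes of ribosome assembly were modestly higher as a group in Myc-high cells. Ribosomes are put together in the nucleolus from ribosomal RNA, ribosomal proteins and many assembly factors, a group known as targets of MYC. The 67 assembly factors of the list found in the files summed to 19.7 UMIs in Myc-high cells and 17.9 in Myc-negative cells, a ratio of 1.10 (1.07 to 1.13). The median cell held 19 UMIs against 17. Of the 32 members that were measured, 24 had a ratio above 1, 3 reached the upper limit and 0 were at or under 0.8, and their median ratio was 1.10 beside 1.004 for all genes measured. The highest was Lyar, a nucleolar zinc finger protein that acts in ribosome assembly, at 0.299 against 0.178 UMIs (ratio 1.68, 1.34 to 2.09). Lyar passed the minimum through its Myc-high level. Mphosph10, a part of the U3 particle that processes ribosomal RNA, followed at 0.315 against 0.250 (ratio 1.26), and at 0.787 without the cells holding other markers. Gnl3 (nucleostemin, a nucleolar GTPase) lay just inside the limit at 0.568 against 0.454. The abundant members Npm1 (nucleophosmin), at 1.58 against 1.31 UMIs (ratio 1.21, 1.10 to 1.32), and Ncl (nucleolin), at 1.62 against 1.45 (ratio 1.12, 1.02 to 1.22), were also higher. The lowest members were Gar1, a protein of the pseudouridine-forming particles, at 0.237 against 0.256 UMIs and Imp3, a U3 particle protein, at 0.264 against 0.289.

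The same list stood at 1.13 (1.08 to 1.17) in the Myc-high cells of library 2. By Myc count in library 3 it was at 1.03 with 1 UMI, 1.10 with 2 and 1.11 with 3 or more, and with depth weighting it was at 1.06. Lyar stood at 1.005, 1.33 and 2.30 over the same Myc counts, and at 1.04 (0.674 to 1.55) in library 2. The Lyar ratio also moved with the random draw of UMIs, from 1.68 to 1.30 with a second seed, and it was 1.48 without thinning. Npm1 was at 1.19 and Ddx21, an RNA helicase of the nucleolus, at 1.27 in library 2, beside 1.21 and 1.20 in library 3. The ribosomal proteins themselves were level between the groups of library 3. The 87 genes named as such summed to 364 UMIs in Myc-high and 363 in Myc-negative cells, a ratio of 1.004 (0.998 to 1.01). Their ratio in library 2 was 1.03 (1.02 to 1.04). The only one to reach the upper limit in library 3 was Rps19bp1, which binds a ribosomal protein and is not one itself. It was at 0.387 against 0.305 (ratio 1.27) and at 0.767 in library 2. Rpl27 followed at 1.13, and Rps27 and its near-identical copy Rps27rt were lowest at 0.927 and 0.865.

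**Figure D3:**
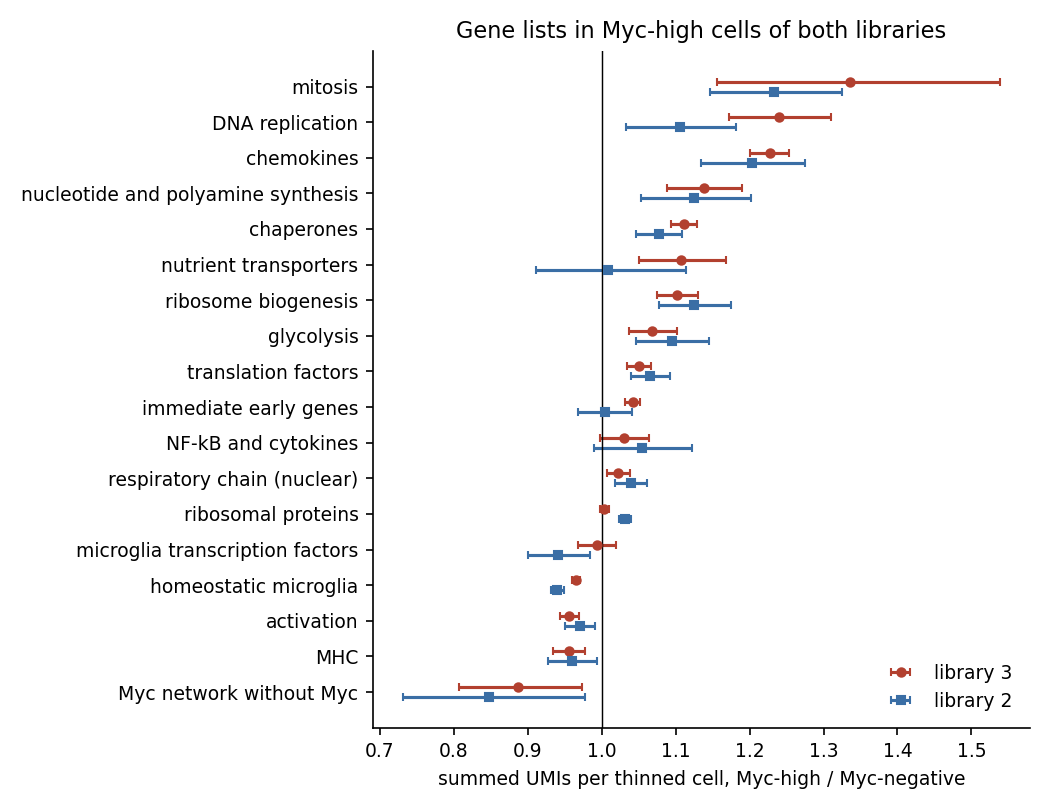
Ratio of the summed level of each gene list in Myc-high to that in Myc-negative cells (x axis, linear), with 95% counting intervals, in library 3 (red circles) and library 2 (blue squares). Lists of DNA replication, chemokine, chaperone and ribosome assembly genes lie above 1 in both libraries, and homeostatic, activation and MHC lists lie below 1.

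Enzymes of nucleotide and polyamine synthesis were higher by a like amount. All 7 measured members of this list of 34 had a ratio above 1, 0 of them reached the upper limit, and the summed ratio was 1.14 (1.09 to 1.19), from 6.41 against 5.64 UMIs. The highest were Impdh2, which makes the precursor of guanine nucleotides, at 0.517 against 0.423 UMIs (ratio 1.22), and Nme1, a nucleoside diphosphate kinase whose gene overlaps a read-through gene, at 0.920 against 0.753 (ratio 1.22). Phgdh, the first enzyme of serine synthesis, and Odc1, the first of polyamine synthesis, were lowest at 0.648 against 0.635 and 0.269 against 0.263 UMIs. The list stood at 1.13 (1.05 to 1.20) in library 2.

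Genes of protein folding and protein synthesis were also higher. Of 30 measured chaperone genes 27 had a ratio above 1 and 3 reached the upper limit, beside 51.3% and 2.31% of all genes measured, and the list summed to 49.9 against 44.9 UMIs, a ratio of 1.11 (1.09 to 1.13). Hspa1a, the stress-induced HSP70, was highest at 0.741 against 0.498 UMIs (ratio 1.49, 1.30 to 1.71), though it has a near-identical neighbouring copy and was at 0.992 within cells of 4000 to fewer than 6000 UMIs. It was followed by Hspa9, the mitochondrial HSP70, at 0.477 against 0.356 (ratio 1.34). Cct2, a subunit of the ring that folds actin and tubulin, was at 0.496 against 0.378 (ratio 1.31), and its partner subunits Cct3 and Cct5 were at 1.24 and 1.23. Other subunits of the ring lay nearer to 1, with Cct7 at 1.17, Tcp1 at 1.07, Cct4 at 1.006 and Cct8 at 0.993. Hspa5, the chaperone of the endoplasmic reticulum, was at 6.35 against 5.46 UMIs (ratio 1.16, 1.11 to 1.22). The lowest were Fkbp4, a co-chaperone of HSP90, at 0.568 against 0.592 and Dnajb4, a co-chaperone of HSP70, at 0.211 against 0.255 UMIs. In library 2 the list was at 1.08 (1.05 to 1.11), and Hspa1a was at 0.0294 against 0.0200 UMIs there.

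Translation factors were at 49.6 against 47.2 UMIs in sum, a ratio of 1.05 (1.03 to 1.07), and 29 of 36 measured members were above 1. Eif3b, a scaffold subunit of initiation factor 3, was the only one to reach the upper limit, at 0.424 against 0.329 UMIs (ratio 1.29), followed by Eif3d of the same complex at 1.22. Eif6 was lowest at 0.856, and Eif3h, also of initiation factor 3, was next at 0.862, so members of that complex lay on both sides of 1. In library 2 Eif3b was at 1.29 and Eif3d at 0.825. All 4 measured nutrient transporters were above 1, led by Slc7a5, which with Slc3a2 imports large neutral amino acids, at 0.347 against 0.259 UMIs (ratio 1.34, 1.09 to 1.63). Slc16a3, which exports lactate, was at 0.384 against 0.312 (ratio 1.23). Slc38a2, which imports small neutral amino acids, was at 0.461 against 0.385 (1.20), and Slc3a2 itself at 2.74 against 2.54 (1.08). The transporter list was at 1.11 (1.05 to 1.17) in sum in library 3 and at 1.009 (0.911 to 1.11) in library 2. In library 2 Slc7a5 was at 1.27 and Slc16a3 at 0.917. Glycolytic enzymes were at 1.07 in sum (1.04 to 1.10), with Pgam1 (phosphoglycerate mutase) and Ldha (lactate dehydrogenase A) highest at 1.16 each. Hif1a, the oxygen-sensitive regulator of this pathway, was at 0.195 against 0.244 UMIs (ratio 0.797, 0.613 to 1.02) and at 1.11 (0.749 to 1.60) in library 2. Hif1a passed the minimum through its Myc-negative level. Ldhb, a lactate dehydrogenase subunit, was at 0.976. Nuclear genes of the respiratory chain were at 1.02 in sum, from the complex I subunits Ndufv1 and Ndufv2 at 1.19 and 1.17 to Ndufb2 and Uqcrc2 at 0.876 and 0.881, and mitochondrially encoded genes were also at 1.02.

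DNA replication genes were higher in Myc-high cells although few of them were abundant. The 36 genes of the list summed to 4.25 UMIs against 3.43, a ratio of 1.24 (1.17 to 1.31), and to 1.16 with depth weighting. Only 4 were measured, and all of these lay above 1. Pcna, the sliding clamp of DNA polymerases, was at 0.251 against 0.179 UMIs (ratio 1.40, 1.10 to 1.77), and it passed the minimum through its Myc-high level. Mcm3, a subunit of the replicative helicase, was at 0.296 against 0.235 (ratio 1.26, 1.01 to 1.56). Rfc2, a subunit of the clamp loader, was at 0.616 against 0.534 and Slbp, which binds histone mRNA, at 0.576 against 0.557. Of the other 32 members, all under the minimum level, 24 were higher in Myc-high cells. The 32 were together at 2.51 against 1.92 UMIs (ratio 1.31, 1.21 to 1.40). Among these, chosen after their values were seen, Lig1, the ligase that joins Okazaki fragments, had 51 UMIs in 375 cells against 99 in 1752 (ratio 2.41, 1.68 to 3.41), and Gins1, a part of the helicase complex, had 41 against 83 (ratio 2.31, 1.55 to 3.39). Mcm6, a further helicase subunit, had 64 against 184 (ratio 1.63). The partners of Gins1 in its complex did not share its ratio, with Gins2 at 0.963, Gins4 at 0.951 and Gins3 at 0.609. Gins3 had only 3 UMIs in the Myc-high cells. In library 2 the whole list was at 1.11 (1.03 to 1.18), Lig1 at 1.19, Gins1 at 1.15 and Pcna at 1.09.

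The replication genes differed in how they stood over the Myc counts. The list was at 1.01 in cells with 1 Myc UMI, 1.28 with 2 and 1.17 with 3 or more. Mcm3 was likewise highest with 2 Myc UMIs, at 0.831, 1.38 and 1.06. Pcna was at 1.28, 1.31 and 1.55, and Gins1 at 1.51, 2.31 and 2.31.

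Most mitotic genes were near 0 in both groups of library 3. The 27 genes of the list found in the files summed to 0.669 UMIs in Myc-high cells and 0.501 in Myc-negative cells (ratio 1.34, 1.16 to 1.54), most of it from Hmgb2, a chromatin protein that is also high in dividing cells, at 0.515 against 0.384 UMIs (ratio 1.34, 1.14 to 1.58). The other 26 genes together gave 58 UMIs in the 375 Myc-high cells and 206 in the 1752 Myc-negative cells, a ratio of 1.32 (0.965 to 1.77). Mki67, the common marker of dividing cells, gave 1 UMI against 6, Top2a (topoisomerase II alpha) 6 against 23 and Cdk1, the mitotic kinase, 10 against 24, so that no direction can be read from single genes at this depth. In library 2 the same 26 genes were far more abundant, at 4.74 UMIs in Myc-high and 3.89 in Myc-negative cells, and the full list was at 1.23 (1.15 to 1.33). Of the G1 regulators in library 3, Cdk6 was at 0.331 against 0.263 UMIs (ratio 1.26, 1.02 to 1.54) and its relative Cdk4 at 1.17. Ccnd1 (cyclin D1) was at 0.643 against 0.676 and Gadd45g, a growth arrest gene, at 0.813 against 0.860, and the G1 list of 27 genes was at 1.02 (0.968 to 1.07).

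**Figure D4:**
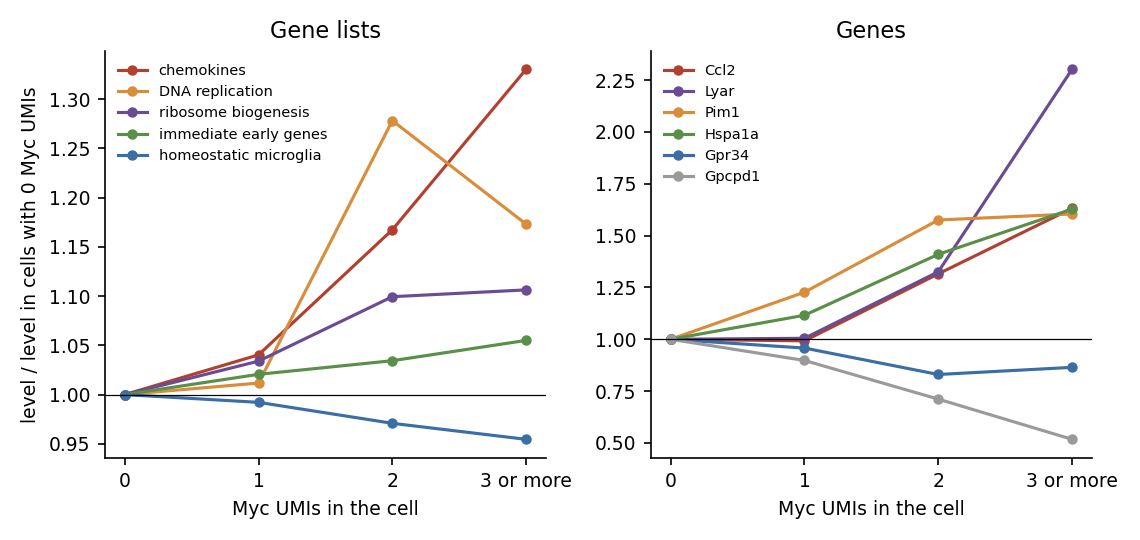
Summed level of 5 gene lists (left) and level of 6 genes (right), each divided by its level in cells with 0 Myc UMIs (y axes, linear), against the Myc UMIs of the cell (x axis). Chemokines and Lyar climb most steeply to 1.33 and 2.30 in cells with 3 or more Myc UMIs, and homeostatic genes reach 0.955. Lyar was chosen by its ratio in these same cells, and all points share the same Myc-negative cells.

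Immediate early genes, of which Myc itself is one, differed by only a few percent. They are switched on within minutes of many stimuli and also of tissue dissociation. The 44 genes summed to 136 UMIs per thinned cell in Myc-high and 131 in Myc-negative cells, a ratio of 1.04 (1.03 to 1.05), and 20 of 25 measured members were above 1 while 0 reached either limit. Fos was at 16.7 against 15.5 UMIs (ratio 1.08, 1.05 to 1.11), with a median cell at 16 against 14. Jun, its partner in the AP-1 dimer, was at 20.4 against 19.8 (ratio 1.03). The highest members were Id2, an inhibitor of helix-loop-helix factors, at 0.768 against 0.639 (ratio 1.20), and the stress-induced factor Atf3 at 1.81 against 1.56 (ratio 1.16, 1.06 to 1.26). The lowest were Klf4, a zinc finger factor, at 1.49 against 1.61 and Zfp36l2, which destabilizes mRNA, at 0.907 against 1.04 (ratio 0.875, 0.777 to 0.983). The list was at 1.025 with depth weighting, 1.06 in cells of 4000 to fewer than 6000 UMIs and 1.002 in cells of at least 6000, and at 1.004 (0.968 to 1.04) in library 2, where its level was 22.7 against 22.6 UMIs. Atf3 was at 0.0294 against 0.0709 UMIs in the Myc-high and Myc-negative cells of library 2.

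Signalling genes gave a mixed picture. Pim1, a kinase induced by JAK-STAT signals that also stabilizes MYC protein, was at 0.245 against 0.155 UMIs (ratio 1.59, 1.24 to 2.02) and stood at 1.23, 1.58 and 1.60 with 1, 2 and at least 3 Myc UMIs. Socs3, a feedback inhibitor of the same pathway, was at 2.29 against 2.04 (ratio 1.12, 1.04 to 1.21), while Il6ra, the interleukin 6 receptor, was at 0.883 against 0.934 and the kinase Jak1 at 0.429 against 0.446. Pim1 passed the minimum through its Myc-high level, and in library 2 it was at 0.118 against 0.128. The MAP kinase phosphatases and related inhibitors, which switch off growth factor signals, were at 1.02 (0.991 to 1.06) in sum and at 0.860 (0.754 to 0.979) in library 2. Of the 4 measured, Dusp1 was at 8.33 against 7.92 UMIs (ratio 1.05), Dusp7 at 0.235 against 0.245, Dusp6 at 3.11 against 3.31 (ratio 0.938) and Dusp3 at 0.187 against 0.218. Of 13 measured genes of the NF-kB pathway and its cytokines, 7 were above 1 and 2 were at or under 0.8, and the list was at 1.03 (0.998 to 1.06). Nfkbiz, a nuclear cofactor of NF-kB, was at 0.888 against 0.733 (ratio 1.21) and Tnf, the cytokine, at 0.712 against 0.610 (ratio 1.17). Tnfaip3, a brake on the same pathway, was under the minimum level at 0.125 against 0.122 UMIs (ratio 1.03, 0.732 to 1.41). Rela, the p65 subunit of NF-kB, was at 0.227 against 0.312 (ratio 0.726, 0.571 to 0.914) and Cd83, a surface protein of activated antigen-presenting cells, at 0.525 against 0.664 (ratio 0.791, 0.677 to 0.921).

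Transcripts of homeostatic microglia were slightly lower in Myc-high cells. Of the 29 measured members of this list, 24 had a ratio below 1 and 0 reached 0.8. Their sum was 363 UMIs against 377 (ratio 0.965, 0.959 to 0.971), and the median cell held 359 against 375. The lowest were Gpr34, a lysophosphatidylserine receptor, at 3.26 against 3.87 UMIs (ratio 0.843, 0.792 to 0.896), and P2ry12, the ADP receptor that steers microglial processes, at 9.09 against 10.5 (ratio 0.866, 0.834 to 0.898). The median cell held 9 against 10 P2ry12 UMIs, and the 5th to 95th percentiles ran from 3 to 16.3 against 4 to 18, so that the groups largely overlapped. Cst3 (cystatin C), one of the most abundant microglial transcripts, was at 144 against 150 UMIs (ratio 0.960). The highest members were Olfml3, a secreted matrix protein, at 8.18 against 7.50 (ratio 1.09, 1.05 to 1.13), and the Fc receptor-like gene Fcrls at 6.04 against 5.72 (ratio 1.06). In library 2 the list was at 0.940 (0.932 to 0.949), Gpr34 at 0.871, P2ry12 at 0.900 and Cst3 at 0.897, while Olfml3 was again above 1 at 1.08. By Myc count the list stood at 0.992, 0.971 and 0.955 with 1, 2 and at least 3 Myc UMIs.

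The transcription factors that hold microglial identity were level in sum in library 3, at 18.7 against 18.9 UMIs (ratio 0.993, 0.968 to 1.02). Their ratio in library 2 was 0.941 (0.900 to 0.984). Fli1, an ETS factor, had the lowest ratio at 0.357 against 0.466 (ratio 0.767, 0.634 to 0.922), and it was at 0.728 in library 2. Cebpa, a myeloid factor, was at 1.20 against 1.36 (ratio 0.883), and Runx1 and Spi1 (PU.1) were highest at 1.07 and 1.04. Genes of activated microglia were at 71.4 against 74.7 UMIs (ratio 0.956, 0.943 to 0.969). Among them Lpl, which releases fatty acids from lipoproteins, was at 0.235 against 0.167 (ratio 1.40, 1.09 to 1.79) and at 2.06 in library 2. Lpl passed the minimum through its Myc-high level. Cd9, a tetraspanin, was at 3.94 against 4.52 (ratio 0.870, 0.822 to 0.920). Lyz2 (lysozyme) was at 1.03 and the lysosomal protein Cd68 at 0.912. MHC genes were at 0.955 (0.933 to 0.977) and 0.960 in library 2. The proteasome subunit Psmb8 was lowest at 0.837 against 0.957 UMIs, B2m, the light chain of MHC class I, was at 11.6 against 12.4, and H2-DMb1 and H2-K1 were highest at 1.02 and 1.01. Interferon-stimulated genes were at 0.994 (0.938 to 1.05), from Trim30a at 1.12 and Slfn2 at 1.06 to Ifitm3 at 0.888 and Ifi27l2a at 0.813.

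The other genes of the MAX network, which holds MYC and its partner MAX, were lower in sum in Myc-high cells. Of the 12 genes of the MAX network, Max and Mlxipl were the 2 measured besides Myc. Max, the obligate partner of MYC, was at 0.275 against 0.240 UMIs (ratio 1.15, 0.914 to 1.42) and at 0.938 (0.607 to 1.39) in library 2. Mlxipl, a glucose-responsive factor that pairs with the MAX-like protein MLX, was at 0.499 against 0.619 (ratio 0.805, 0.686 to 0.941) and at 0.866 (0.681 to 1.09) in library 2. Without Myc the network summed to 1.42 against 1.60 UMIs, a ratio of 0.886 (0.806 to 0.973) in library 3 and 0.847 (0.731 to 0.977) in library 2. Mlxipl made up the largest part of that difference in library 3, so the lower sum does not describe each member. Genes known to act on Myc RNA or MYC protein were at 1.04 (0.992 to 1.09), with Ruvbl1, an ATPase cofactor of MYC, at 0.219 against 0.183 UMIs next after Pim1, and Gsk3b, a kinase that marks MYC for decay, at 0.429 against 0.420. Ruvbl1 and Pim1 passed the minimum through their Myc-high levels. BCL2 family genes and other regulators of cell death were at 1.04 (0.993 to 1.09), from Bak1 at 1.26 and Bad at 1.18 to Bax at 0.962 and Bbc3 (PUMA) at 0.826.

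The 15 highest ratios among all genes measured ran from 1.36 to 1.72 and mixed these groups. Besides Ccl7, Lyar, Pim1, Hspa1a, Ccl2, Lpl and Pcna they were Cd72, an inhibitory receptor of the lectin family (0.272 against 0.180 UMIs), Tomm40, the import channel of mitochondria (0.568 against 0.403), Ntmt1, a methyltransferase of protein N termini (0.251 against 0.179), and Tmem97, a cholesterol-related membrane protein (0.256 against 0.183). Tmem97 turned to 0.720 within cells of 4000 to fewer than 6000 UMIs. Wdr18, which acts in assembly of the large ribosomal subunit, was at 0.256 against 0.187, Wdr61, of the PAF1 and SKI complexes, at 0.288 against 0.212, Ppil4, a prolyl isomerase linked to splicing, at 0.285 against 0.210, and Dtymk, which makes the precursor of dTTP, at 0.360 against 0.265. These ratios chose the genes and are a description. Of the 15, 9 passed the minimum through their Myc-high level, namely Ccl7, Lyar, Pim1, Cd72, Lpl, Pcna, Ntmt1, Tmem97 and Wdr18. Each of the 15 rests on 88 to 881 UMIs in the Myc-high cells.

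The 15 lowest ratios ran from 0.636 to 0.750, and each rests on 61 to 112 UMIs in the Myc-high cells. The lowest was Trim12a, of a family of antiviral TRIM proteins with near-identical copies, at 0.168 against 0.264 UMIs. Thinned to 2000 UMIs it was at 0.976. Gpcpd1, which cleaves glycerophosphocholine, followed at 0.163 against 0.254, and then Ubald2 (0.216 against 0.333), Tm2d1 (0.229 against 0.339, and a ratio of 1.04 when thinned to 2000 UMIs) and Ppp1r9a, the actin scaffold neurabin (0.203 against 0.290). Rela, described above, came next with Ccng2, a cyclin linked to growth arrest (0.283 against 0.389). The remaining ones were Snx29, a sorting nexin, Cd27, a TNF receptor family member, Dazap2, Neurl3, Smim10l1, Tigd2, the zinc finger repressor Zbtb20 and P2rx7, the ATP-gated channel of microglia, with levels between 0.187 and 0.299 UMIs in Myc-high cells and between 0.249 and 0.406 in Myc-negative cells. With 1 Myc UMI these 15 had ratios with a median of 0.921, and the 15 highest had a median of 1.04. Both medians are taken against the same Myc-negative cells that helped to choose the genes, so they are no independent comparison.

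**Figure D5:**
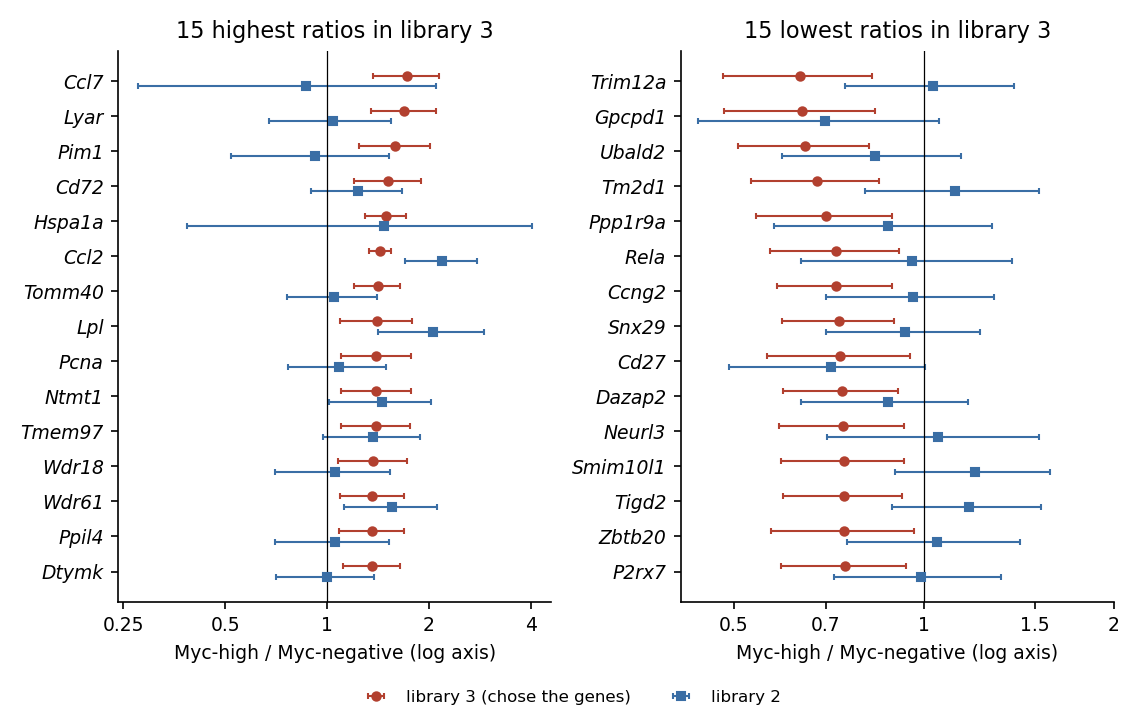
Ratio of Myc-high to Myc-negative cells (x axes, log) for the 15 highest (left) and 15 lowest (right) genes of library 3 (red circles, which chose the genes) and for the same genes in library 2 (blue squares), with 95% counting intervals. In library 2 the ratios lie nearer to 1, except for Ccl2 at 2.18, Lpl at 2.06, Wdr61 at 1.56, Ntmt1 at 1.45 and Cd27 at 0.714.

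In library 2, with its 136 Myc-high and 2454 Myc-negative cells, the same genes were compared again without having been chosen there. The median depth before thinning was 8316 UMIs in its Myc-high and 6026.5 in its Myc-negative cells, a wider gap than in library 3, and its part in these ratios was not tested. Of the 73 genes past the upper limit in library 3, 51 (69.9%) had a ratio above 1 in library 2, compared with 51.5% of all 3160 genes, and 19 (26.0%) reached the upper limit there, compared with 6.65%. Their median ratio was 1.11. Of the 47 genes at or under 0.8, 32 (68.1%) had a ratio below 1 in library 2, compared with 48.5% of all genes, and 8 (17.0%) were at or under 0.8, compared with 7.72%. Among the 15 highest, 12 were above 1 in library 2 and 6 reached the upper limit, and among the 15 lowest, 9 were below 1 and 2 were at or under 0.8. Besides Ccl2 and Lpl, Wdr61 at 1.56 (1.12 to 2.11) and Ntmt1 at 1.45 (1.02 to 2.02) had counting intervals above 1 in library 2. Gpcpd1 at 0.699 and Cd27 at 0.714 were the lowest of the 15 there. No test of the difference between the libraries was made.

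The E-box CACGTG, which reads the same on both strands, was looked for in RefSeq promoter windows of 300 bases (250 before and 50 after each start site, GRCm38.p6). It was found in 7.15% of 32851 windows and, by gene, in 8.09% of 27025 symbols and 13.2% of the 2474 measured genes that have a window. Of the 15 highest genes, 10 had a window and 3 of these held the motif (Pim1, Ntmt1 and Dtymk), and of the 15 lowest, 12 had a window and 2 held it (Ppp1r9a and Dazap2). A gene was counted if any of its windows held the motif. Pim1, Ntmt1 and Ppp1r9a have 2 windows each, of which 1 held it. For Pim1, the 250 bases before that start overlap an exon of Pim1 itself. Among measured ribosome assembly factors 5 of 29 held the motif (17.2%), and among nucleotide and polyamine enzymes 2 of 6. It was held by 0 of 3 DNA replication genes, 2 of 22 homeostatic genes (9.09%) and 0 of 4 chemokines. Shown here, with the motif in capitals, are the 250 bases before the start of Dtymk (chr1:93801935-93802184, minus strand, motif from 148 bases before the start), one of the 15 highest, and of Nop2, an rRNA methyltransferase of the assembly list at 0.253 against 0.227 UMIs (chr6:125131633-125131882, plus strand, motif from 60 bases before the start). Both stretches overlap no gene of GENCODE M21. A match describes the letters only.
Dtymk: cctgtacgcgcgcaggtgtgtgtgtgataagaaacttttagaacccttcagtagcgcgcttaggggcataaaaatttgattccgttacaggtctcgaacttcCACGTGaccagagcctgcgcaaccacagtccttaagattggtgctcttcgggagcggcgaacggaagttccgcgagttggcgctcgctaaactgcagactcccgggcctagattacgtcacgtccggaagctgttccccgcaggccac
Nop2: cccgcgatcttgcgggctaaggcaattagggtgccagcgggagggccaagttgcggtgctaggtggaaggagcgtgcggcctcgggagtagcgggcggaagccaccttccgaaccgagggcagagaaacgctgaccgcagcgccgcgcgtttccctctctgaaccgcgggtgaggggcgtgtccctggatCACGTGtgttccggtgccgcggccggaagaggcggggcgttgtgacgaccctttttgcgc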

How the data were processed

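YFP (+) cells of 3 libraries were measured by droplet-based 3′ RNA sequencing, and the authors deposited raw UMI counts per gene and cell, joined in 1 matrix of 27998 genes and 7522 cells. The submitters' processing notes name Cell Ranger 2.1.1 and the mm10 build. Its settings, its cell calling rule and any depth equalization were not stated in the labels or methods. The labels name a v3.1 kit. Per the methods, events were gated by size and doublets were gated out while sorting. No doublet caller was run on the matrix. Libraries held 1343055, 24097543 and 19769170 UMIs, with medians of 2218, 5952 and 5742 per cell.

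Cells with at least 4000 UMIs were grouped by their Myc count and thinned to 4000 UMIs without replacement (seed 1). Genes at 56 symbols listed under 2 identifiers stayed out of the lists. Genes whose mean of both group means was at least 0.2 were measured, genes at least 25% higher or at least 20% lower were counted, and for lists the UMIs of all members were summed. With 1 library no test was made. Binomial intervals are Clopper-Pearson, and all intervals cover counting error only. Zero counts carry an upper limit of 3. Library 2 was treated the same way.

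The genes named are the 15 highest and 15 lowest ratios (gene models, pseudogenes and mitochondrial genes passed over), the 2 highest and 2 lowest measured members of each list, all measured members of the MAX network, and Mki67, Top2a, Ccnd1, Cdk1 and Tnfaip3, and other members named in the text were chosen after their values were seen. The cells, lists and rules were chosen with earlier results of these data known. Positions are those of GENCODE M21, in which 27645 identifiers were found, and promoter windows are RefSeq's on GRCm38.p6. The ratio step was tested on simulated counts. Computation used scipy 1.17.1, pandas 2.3.3, numpy 2.4.6 and Python 3.11.15. Other Myc limits, thinning depths, seeds, level minimums, depth weightings and cell filters were tried, some after the data were seen, as the closing section tells.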

Additional observations from a re-analysis of the deposited data

How the results depend on the processing

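Of 75 alternative values for the share of Myc-high cells, the counts of genes and the 3 main list ratios, 35 stayed within the counting interval of the value reported (counts within 1.5 times) and 40 moved, and 0 of the list ratios crossed 1. The cause of each shift was not tested beyond what the setting itself changes, such as fewer cells or UMIs. The share of 12.9% became 6.90% with Myc counted after thinning, 11.7% over every barcode, 18.0% at 6000 UMIs or more and 4.70% for at least 3 Myc UMIs. The counts of 73 higher and 47 lower genes became 252 and 192 for at least 3 Myc UMIs (137 cells), 11 and 8 for 1 Myc UMI (785 cells), 124 and 100 with Myc counted after thinning, 179 and 167 at 2000 UMIs, 37 and 27 without thinning, 10 and 5 at a level of 0.5, 561 and 555 at a level of 0.05, and 251 and 208 without cells holding 2 or more UMIs of other cell type markers, which left 132 Myc-high and 723 Myc-negative cells.

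The ribosome assembly ratio of 1.10 became 1.03 for 1 Myc UMI, 1.06 with Myc counted after thinning, 1.06 with depth weighting and 1.06 without the cells holding other markers. The early gene ratio of 1.04 became 1.06 for at least 3 Myc UMIs, 1.02 for 1, 1.025 with depth weighting and 1.01 in cells thinned to 6000 UMIs. The homeostatic ratio of 0.965 became 0.955 for at least 3 Myc UMIs, 0.992 for 1, 0.977 with Myc counted after thinning and 0.974 without the cells holding other markers. Alternatives added after the data were seen gave, in cells of 4000 to fewer than 6000 UMIs, 247 higher and 216 lower genes and ratios of 1.04, 1.06 and 0.980 for these lists, and in deeper cells 128 and 95 genes and an early gene ratio of 1.002.

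Single genes crossed 1 under some alternatives. With 1 Myc UMI these were Ccl7 (0.957), Cd72 (0.942), Ccl2 (0.993), Lpl (0.922), Dtymk (0.960), Hspa9 (0.971), Mcm3 (0.831), Trim12a (1.003), P2rx7 (1.03), Hif1a (1.05) and Fli1 (1.01). At 2000 UMIs they were Tm2d1 (1.04) and Neurl3 (1.01), at 6000 UMIs Cd27 (1.04) and Bak1 (0.994), and without the cells holding other markers Ccl7 (0.663) and Mphosph10 (0.787). In cells of 4000 to fewer than 6000 UMIs they were Hspa1a (0.992), Tmem97 (0.720) and Mcm3 (0.951). Leaving out a replicate was not possible with 1 library. No paired analysis was possible because each group is 1 library and the comparison is between cells of the same library.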

Other observations

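A few genes outside the lists stood out among those with more UMIs, and were chosen after their values were seen. At a level of at least 0.5 UMIs, 10 genes passed the upper limit. Vmp1, a membrane protein of autophagy, was at 0.677 against 0.525 UMIs (ratio 1.29, 1.12 to 1.49) and at 1.12 in library 2. Marcksl1, an actin-binding protein, was at 1.27 against 1.01 (ratio 1.26, 1.13 to 1.39) and at 1.14 in library 2. The 5 genes on the lower side included Usf2, a factor that binds the same CACGTG E-box as MYC, at 0.437 against 0.572 UMIs (ratio 0.764, 0.644 to 0.902), and it was at 1.14 in library 2. Csmd3, a membrane protein, was at 0.461 against 0.607 (ratio 0.760, 0.643 to 0.893) and at 0.873 in library 2.

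The 15 lowest genes rest on 61 to 112 UMIs in the Myc-high cells. The intervals cover counting error and hold no spread between animals or preparations, since each group comes from 1 library with no known time point.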
